A study of Mus musculus with 67 samples.

Results

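Genes of S phase and DNA replication were described in liver RNA from 67 mice. The set was a list of 53 genes named for their roles in replication. These were origin licensing, helicase activation, DNA polymerases, the sliding clamp and lagging strand, nucleotide supply, chromatin assembly, and the regulators of S phase. The list was chosen with earlier results of these data known, so its shares beside all genes are not independent of that choice. The count tables held 55450 gene identifiers, of which 16908 passed the expression filter, and 52 of the 53 genes were among them. Orc1, the large subunit of the origin recognition complex, did not pass. It had 147 counts over all 67 libraries, with 0 to 13 per library, and group means of 0.0146 to 0.18 CPM (counts scaled to TMM-adjusted library sizes). Orc1 was not tested.

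Wild-type (WT) mice were compared with double knockout (DKO) mice, whose genotype label reads Sesn2 DKO and whose study text reads Sestrin DKO. The sestrins are stress-induced proteins, and Sestrin2 is known to bind leucine and to hold back the kinase complex mTORC1 while leucine is low. Mice ate control or leucine-free food for 24 hours (day 1) or for 8 days (day 8). Control groups held 7 WT and 8 DKO mice at day 1 and 5 of each genotype at day 8. Leucine-free groups held 12 WT and 18 DKO mice at day 1 and 6 of each genotype at day 8. No other treatment, and no strain, is given for these groups in the labels. Sesn1 was lower in every DKO library (3.49 to 7.68 CPM) than in any WT library (9.24 to 22.2 CPM). Sesn2 counts were not lower in DKO groups. Its means were 12.8 CPM (WT) and 13.3 CPM (DKO) on control food at day 1, 14.2 and 23.3 CPM without leucine at day 1, 11.9 and 13.6 CPM on control food at day 8, and 13.1 and 21.5 CPM without leucine at day 8. Counts over a whole gene cannot show the loss of part of it. The hepatocyte gene Alb had group means of 58101 to 88634 CPM. Library totals ranged from 22814668 to 56916009 counts.

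Before S phase, the origin recognition complex, Cdc6 and Cdt1 load the ring-shaped MCM helicase onto DNA, which licenses each origin to fire. In S phase Cdc45 and the GINS complex switch the helicase on. The polymerases copy both strands together with the clamp Pcna, and ribonucleotide reductase supplies the building blocks. E2F transcription factors switch on many of these genes as a cell commits to divide. Most hepatocytes of an adult liver are quiescent, and in RNA from a whole piece of liver, fewer cells in S phase and less RNA per cell cannot be told apart.

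The promoters of 44 of the 53 genes were found in a RefSeq table (GRCm38.p6). Its windows run from 250 bases before to 50 bases after each RefSeq gene start. These starts can differ from the gene positions given elsewhere here. The Mcm5 window, for one, ends at 75109558, before the listed start of the gene at 75109569. A pair of spellings of the E2F site, TTTCCCGC and TTTGGCGC, were searched on both strands. A spelling and its reverse complement are different letters, and no match of one spelling can be a match of the other. The 44 genes had 51 windows, since some have several starts. TTTCCCGC stood in 8 of the 51 windows (15.7%), TTTGGCGC in 8 (15.7%) and either in 15 (29.4%), which belong to 15 genes. Of all 32851 promoter windows 1.07% held TTTCCCGC, 0.514% held TTTGGCGC and 1.56% held either. Licensing genes held 6 of the 15 matches by gene, polymerase genes 4, regulators 3, and helicase and clamp genes 1 each. The nucleotide supply and chromatin genes held none. These counts are not shares of each role, since Gins1, Gins2 and Gins4 among the helicase genes had no window. A match describes these letters in this window and is not a measured binding site.

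The windows of 4 licensing genes are shown, since this role held the most matches and its members differ in how they moved. Mcm6 (chr1:128359656-128359955, minus strand) was printed by rule, as the licensing gene with the smallest adjusted p between the control groups of day 1, and its window held TTTGGCGC at bases 141 and 204. Mcm5 (chr8:75109259-75109558, plus strand), Cdc6 (chr11:98907901-98908200, plus strand) and Cdt1 (chr8:122567765-122568064, plus strand) were chosen after their values were seen. The letters were on the opposite strand in Mcm5 (TTTGGCGC, base 102) and in Cdc6 (TTTCCCGC, base 113), and on the strand of the gene in Cdt1 (TTTGGCGC, base 283). Each sequence is printed 5′ to 3′ on the strand of its gene, bases are counted from its 5′ end, and capitals mark the match or its reverse complement.
Mcm6: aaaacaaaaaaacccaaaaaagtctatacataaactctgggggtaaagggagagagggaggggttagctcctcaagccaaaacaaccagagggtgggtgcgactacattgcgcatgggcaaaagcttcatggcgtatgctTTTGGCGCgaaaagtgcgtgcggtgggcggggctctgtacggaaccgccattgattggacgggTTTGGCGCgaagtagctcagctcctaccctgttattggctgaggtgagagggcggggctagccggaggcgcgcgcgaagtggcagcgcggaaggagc
Mcm5: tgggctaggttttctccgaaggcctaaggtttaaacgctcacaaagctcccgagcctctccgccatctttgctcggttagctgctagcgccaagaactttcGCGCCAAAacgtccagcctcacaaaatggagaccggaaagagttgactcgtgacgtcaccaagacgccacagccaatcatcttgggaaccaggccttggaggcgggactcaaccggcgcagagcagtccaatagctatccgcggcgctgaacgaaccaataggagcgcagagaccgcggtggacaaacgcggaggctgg
Cdc6: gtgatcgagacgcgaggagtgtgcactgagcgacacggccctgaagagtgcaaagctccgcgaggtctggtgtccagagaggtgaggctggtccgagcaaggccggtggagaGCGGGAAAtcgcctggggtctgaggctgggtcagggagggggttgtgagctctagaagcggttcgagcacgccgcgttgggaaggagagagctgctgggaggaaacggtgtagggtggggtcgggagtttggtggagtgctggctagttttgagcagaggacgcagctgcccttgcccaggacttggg
Cdt1: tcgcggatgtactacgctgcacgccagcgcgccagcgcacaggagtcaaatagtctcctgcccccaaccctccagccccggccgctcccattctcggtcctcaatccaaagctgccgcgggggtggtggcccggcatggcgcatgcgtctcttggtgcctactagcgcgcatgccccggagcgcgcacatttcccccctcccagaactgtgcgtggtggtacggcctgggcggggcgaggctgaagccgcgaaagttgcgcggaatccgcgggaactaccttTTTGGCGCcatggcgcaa

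The letters TTTGAA, one spelling of the CHR element known from promoters of mitotic genes, were counted for contrast. They stood in 8 of the 51 replication gene windows (15.7%), in 17.9% of all windows, and in 28 of the 36 windows (77.8%) of 34 G2 and mitosis genes. None of those 36 windows held either spelling of the E2F site.

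Levels differed widely among the genes. Per kilobase of exon, and averaged over all libraries, Pcna (the sliding clamp) stood highest at 10.3 CPM per kb. Gins4, a subunit of GINS, followed at 9.55 CPM per kb, and Pold2, an accessory subunit of polymerase delta, at 7.92 CPM per kb. Dtl, the substrate receptor of the ligase that degrades Cdt1 in S phase, had 0.024 CPM per kb, the lowest of the genes tested.

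The mean log2 CPM over the 52 genes was taken in every library as a description. It was 1.92 to 2.28 (median 2.08) in WT and 2.03 to 2.68 (median 2.42) in DKO controls of day 1. Without leucine for 1 day it was 1.42 to 1.80 in WT and 1.31 to 1.74 in DKO livers. Neither leucine-free range reached the control range of its genotype. At day 8 control livers were lower than at day 1, with 1.61 to 1.81 in WT and 1.65 to 1.95 in DKO livers. The leucine-free livers of day 8 ranged from 1.29 to 1.55 in WT and from 1.44 to 1.87 in DKO mice, so that only the DKO range overlapped its control. Within DKO control livers of day 1, replicate 5 had the lowest mean (2.03), and it was lowest for G2 and mitosis genes as well (0.95 against up to 3.40). Among WT control livers of that day replicate 7 had the highest means, at 2.28 and 1.06.

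**Figure D1:**
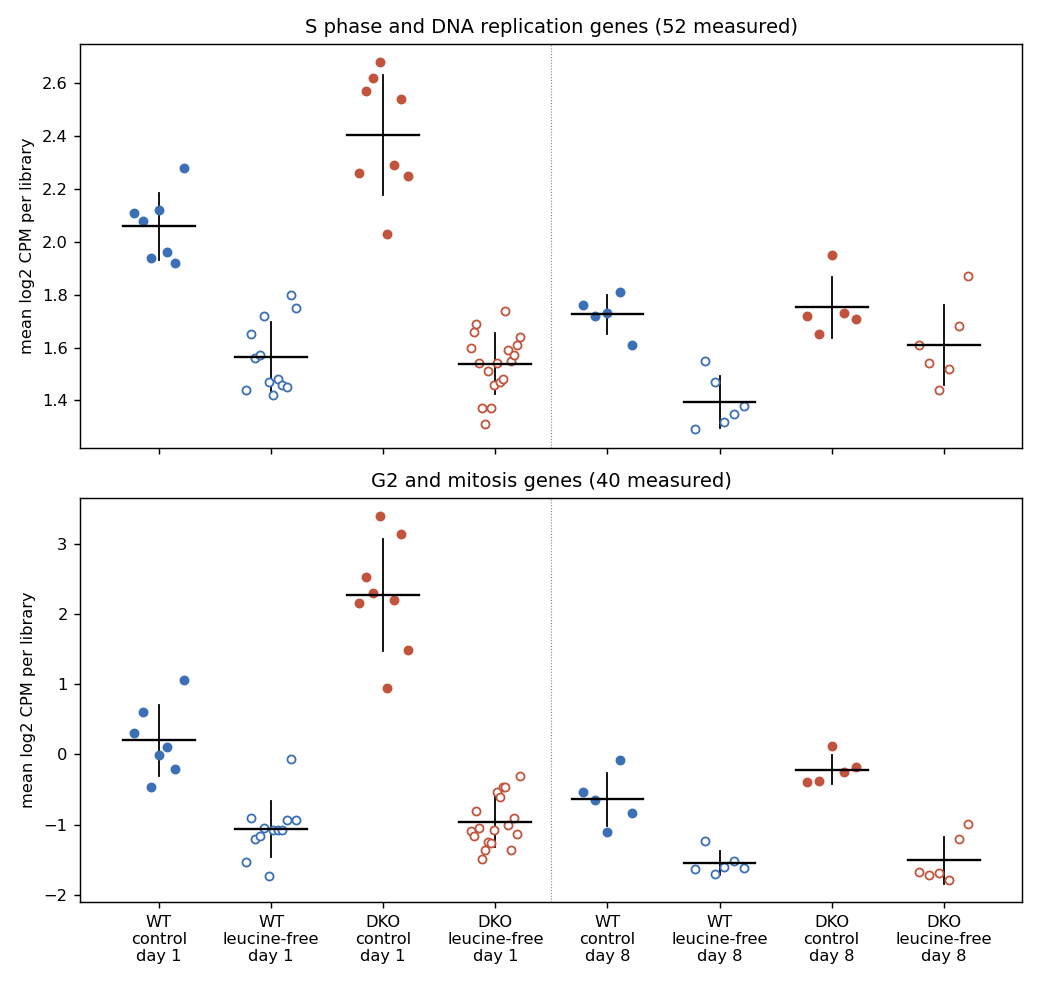
Mean log2 CPM of the 52 replication genes and of the 40 G2 and mitosis genes in each of the 67 libraries, by group of genotype, food and day; each point is 1 liver, and bars give the group mean and SD. The day 1 control groups stand highest, with medians of 2.08 (WT) and 2.42 (DKO) for the replication genes, and the day 1 leucine-free groups lie at 1.52 and 1.54.

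On control food at day 1, 6 of the 52 genes (11.5%) rose above their WT level in DKO livers and none lay below it. Over all 16908 genes 0.84% were higher and 0.0414% lower. The 6 genes came from 5 roles: the MCM subunits Mcm5 and Mcm6 among 9 licensing genes, Gins2 among 6 helicase genes, Rrm2 (the S phase subunit of ribonucleotide reductase) among 6 nucleotide genes, Uhrf1 (which brings the maintenance methyltransferase to hemimethylated DNA) among 6 chromatin genes, and Clspn (claspin, an adaptor of the replication checkpoint) among 8 regulators. None of 9 polymerase and 8 clamp genes was called. The estimates of 46 of the 52 genes lay above 0, with a median log2 difference of 0.28, beside a median of -0.002 over all genes. The 52 genes were measured in the same livers, so that their signs are not separate observations.

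Mcm6 (ENSMUSG00000026355, GRCm38 chromosome 1, 128331590 to 128359664, minus strand) ranged from 6.5 to 13 CPM (median 9.51) in 7 WT livers and from 10.4 to 23.7 CPM (median 15) in 8 DKO livers. The ranges overlapped between 10.4 and 13 CPM, and the log2 difference was 0.74 ± 0.16 (SE, adjusted p = 0.00204). Mcm5 (chromosome 8, 75109569 to 75128439) ranged from 3.3 to 6.48 CPM in the WT group and lay at 5.04 to 13.3 CPM in DKO livers. All but 1 of the DKO livers lay above the WT range, and the log2 difference was 0.95 ± 0.22 (adjusted p = 0.00557). Mcm7, the most abundant licensing transcript, had 16.3 ± 1.62 CPM (SD, n = 7) in WT mice and 18.9 ± 2.33 CPM (n = 8) in the DKO group, and its log2 difference was 0.21 ± 0.12, which did not pass the test (adjusted p = 0.999). With only the compared groups in the fit Mcm6 lost its call (adjusted p = 0.0772).

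Uhrf1 (chromosome 17, 56303321 to 56323486) ranged from 0.538 to 1.47 CPM (median 1.23) in WT and from 1.16 to 4.12 CPM (median 2.35) in DKO livers. Its log2 difference was 1.23 ± 0.26 (adjusted p = 0.00188), and it lost the call with DESeq2 and with the older edgeR dispersion (highest adjusted p = 0.229). Rrm2 (chromosome 12, 24708241 to 24714146) ranged from 3.7 to 7.75 CPM (median 5.34) in WT and from 3.78 to 17.6 CPM (median 11.6) in the DKO group, with a log2 difference of 1.07 ± 0.23 (adjusted p = 0.0023, and 0.145 with only the compared groups in the fit). Of the 8 DKO livers 6 lay above the WT range and 1 was near its lowest value. Rrm1, the large subunit of the same enzyme, had 13.7 ± 0.595 CPM in WT mice and 16.7 ± 3.42 CPM in DKO livers and was not called.

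The calls of Gins2 and Clspn did not hold without single libraries. Gins2 (chromosome 8, 120578633 to 120589304) had 1.23 ± 0.459 CPM in WT mice and 2.71 ± 0.892 CPM in the DKO group, with a log2 difference of 1.13 ± 0.28 (adjusted p = 0.0204). The call was lost without WT replicate 4, 5 or 6 or DKO replicate 4 or 7, with adjusted p between 0.0555 and 0.108. Clspn (chromosome 4, 126556935 to 126593903) had 0.453 ± 0.194 and 1.09 ± 0.516 CPM, a log2 difference of 1.25 ± 0.33 (adjusted p = 0.0384). It was lost without WT replicate 1, 3, 5 or 6 or DKO replicate 2, 3, 4 or 7, with adjusted p between 0.0635 and 0.182. Among the other 10 settings run, the call of Gins2 was lost in 5 (adjusted p up to 0.378) and that of Clspn in 6 (adjusted p up to 0.692). Every estimate stayed above 0, with the lowest at 0.99 for Gins2 and 1.10 for Clspn.

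Cdc45, which joins the MCM ring and GINS into the active helicase, was the 1 gene of 53 whose groups did not overlap, and it was higher in DKO livers, as 0.16% of all genes tested were without overlap. It ranged from 1.31 to 1.99 CPM in the WT group and lay at 2.06 to 3.12 CPM in DKO livers, but its log2 difference of 0.58 ± 0.22 did not pass over all genes (adjusted p = 0.529). The count of genes called was 8 without DKO replicate 5, the library with the lowest means, and 6 without WT replicate 7. Depending on the method it was between 2 and 7, and Mcm5 was called under every setting run. No marker of the 8 cell type lists was called between these groups, from hepatocyte (9 genes tested) to Kupffer cell (15), lymphocyte (15) and erythroid (9). The summed level of the Kupffer list was 503 to 847 CPM in WT mice and 471 to 956 CPM in DKO livers. The neutrophil marker Ly6g was at 0 in 54 of the 67 libraries.

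A single day without leucine lowered replication genes in both genotypes. In WT livers 26 of the 52 genes (50%) fell and 2 (3.85%) rose, where 11.2% of all genes fell and 8.28% rose. In DKO livers 40 (76.9%) fell and 1 (1.92%) rose, where 13% of all genes fell and 10.5% rose. The median log2 change of the 52 genes was -0.40 in WT and -0.69 in DKO livers, beside medians of all genes within 0.023 of 0. The 2 comparisons have no library in common. Of the 26 genes that fell in WT livers, 25 (96.2%) also fell in DKO livers, where they made up 62.5% of those that fell. With the first 5 mice of each group 17 genes fell and 2 rose in WT livers, and 32 fell and 1 rose in DKO livers. Orc6, a small subunit of the origin recognition complex, was the 1 gene called lower in WT and not in DKO livers, at -0.36 ± 0.10 in WT (adjusted p = 0.00685) and -0.22 in DKO livers.

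Licensing genes fell in most cases. Of 9 tested, 7 fell in WT and 6 in DKO livers, with median log2 changes of -0.82 and -1.02. Mcm6 fell to 2.82 to 6.38 CPM (median 4) in 12 WT leucine-free livers, all below the lowest WT control liver (6.5 CPM), a log2 change of -1.14 ± 0.15 (adjusted p = 1.65e-08). In DKO livers it fell to 3.71 to 6.64 CPM (median 4.41), below the lowest control value of 10.4 CPM, by -1.73 ± 0.12 (adjusted p = 1.43e-18). Mcm5 likewise left the control range in both genotypes, with 0.989 to 2.74 CPM in WT mice and 0.709 to 3.61 CPM in DKO leucine-free livers. Its log2 changes were -1.50 ± 0.22 and -2.26 ± 0.18. Cdc6, which loads the helicase together with Cdt1, went from 0.486 ± 0.142 to 0.163 ± 0.14 CPM in WT mice and from 0.817 ± 0.448 to 0.199 ± 0.124 CPM in DKO livers (log2 change -1.68 ± 0.41 and -2.03 ± 0.30). Mcm2 fell by 0.85 and 1.02, Mcm3 by 0.82 and 1.10 and Mcm4 by 0.49 and 0.57 in WT and DKO livers. Mcm4 was lost in WT without control replicate 4 or 7 (adjusted p = 0.0606 to 0.155).

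Mcm7 and Cdt1 were not called in either genotype. Mcm7 had a log2 change of 0.12 ± 0.11 in WT (adjusted p = 0.509) and -0.21 ± 0.10 in DKO livers (adjusted p = 0.127), and its libraries ranged from 12.3 to 23.2 CPM over the 4 groups. Cdt1 had a mean of 2.91 CPM with leucine and 2.63 CPM without it in WT livers, and 2.98 and 2.25 CPM in DKO livers.

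Among the helicase genes Gins2 fell by 1.24 ± 0.32 on the log2 scale in WT (adjusted p = 0.00298) and by 2.24 ± 0.24 in DKO livers (adjusted p = 1.72e-11). Its leucine-free livers ranged from 0.127 to 1.33 CPM in the WT group and lay at 0.118 to 1.33 CPM in DKO mice, and overlapped the controls in both. Cdc45 (-0.90 ± 0.18) and Gins3 (-0.59) also fell in DKO livers. Gins4 did not pass in either, at 0.01 ± 0.08 in WT and -0.05 ± 0.07 in DKO livers.

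Polymerase genes fell in 3 of 9 cases in WT and in 8 of 9 in DKO livers, with medians of -0.28 and -0.63. Pole, the catalytic subunit of the leading strand polymerase epsilon, went from 3.84 ± 0.842 to 1.72 ± 0.58 CPM in WT (-1.17 ± 0.21, adjusted p = 2.33e-05) and from 4.88 ± 1.66 to 1.83 ± 0.605 CPM in DKO livers (-1.42 ± 0.18, adjusted p = 2.01e-09). Pold2 fell by 0.34 ± 0.11 and 0.47 ± 0.10, where the WT call was lost without control replicate 3 (adjusted p = 0.0563). The primase subunit Prim2 fell in both, by 0.58 and 0.68. Pola1 and Pola2 of polymerase alpha, Prim1, Pole2 and Pold1 were called lower in DKO and not in WT livers, and Pola2 (-0.29) was lost there without control replicate 3 (adjusted p = 0.0554). Pold3 was not called in either.

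The clamp, its loader and the lagging strand enzymes had 3 of 8 genes lower in WT and 7 of 8 in DKO livers, with medians of -0.25 and -0.55. Pcna ranged from 21.9 to 28.1 CPM with leucine and 21.5 to 29.2 CPM without it in WT livers, nearly the same range (a log2 change of -0.03 ± 0.07). In DKO livers it ranged from 23.4 to 38.2 and from 18.4 to 27.9 CPM, and fell by 0.31 ± 0.07 (adjusted p = 0.00019). Fen1, the flap nuclease that trims Okazaki fragments, fell by 0.62 in WT and by 1.00 ± 0.14 in DKO livers (adjusted p = 0.0049 and 9.65e-08). Rfc4, a subunit of the clamp loader, fell by 0.53 ± 0.13 in WT and by 0.58 in DKO livers, and Rfc3 of the same complex by 0.41 and 0.70. The loader subunit Rfc5 (-0.52), the ligase Lig1 (-0.91) and Rpa2, which coats single-stranded DNA (-0.44), were called lower in DKO and not in WT livers, and Rfc2 was not called in either.

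In nucleotide supply 3 of 6 genes fell and 1 rose in WT livers, and 4 fell and 1 rose in DKO livers. Rrm2 left the control range in WT livers, with 1.95 to 3.26 CPM against a lowest control value of 3.7 CPM (-1.09 ± 0.22, adjusted p = 0.000205). In DKO livers it had 1.55 to 4.23 CPM, which overlapped the 1 low control liver at 3.78 CPM (-2.04 ± 0.18, adjusted p = 1.57e-14). Tyms, thymidylate synthase, fell by 0.34 and 0.71, Rrm1 by 0.42 and 0.62, and Dut, which hydrolyses dUTP, by 0.68 in DKO livers. Tk1, the salvage thymidine kinase, did not pass in either (0.55 ± 0.24, adjusted p = 0.0944, and 0.10 ± 0.21, adjusted p = 0.776).

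Ung, the uracil glycosylase that removes uracil from DNA, moved the other way in both genotypes. In WT livers it lay at 3.13 to 7.89 CPM (median 6.03) with leucine and at 5.29 to 25.4 CPM (median 11.3) without it, a rise of 1.07 ± 0.24 (adjusted p = 0.000605). In DKO livers it ranged from 4.7 to 10.1 CPM (median 7.85) and from 6.67 to 22.7 CPM (median 13.6), a rise of 0.91 ± 0.21 (adjusted p = 0.000694). The groups overlapped in both genotypes. The leucine-free ranges were wider in CPM than the control ranges, but they came from more mice and higher levels. The spread was not tested. Ung (chromosome 5, 114130386 to 114139323, plus strand) shares no exon bases with another gene in the annotation.

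The chromatin genes had the largest median change of the 7 roles in both genotypes, -0.94 in WT and -1.37 in DKO livers, and 5 and 6 of 6 fell. Uhrf1 ranged from 0.043 to 0.565 CPM (median 0.195) in WT leucine-free livers, a log2 change of -2.26 ± 0.34 (adjusted p = 7.49e-07). In DKO leucine-free livers it ranged from 0.0654 to 1.01 CPM (median 0.233), all below the lowest control liver at 1.16 CPM, a change of -2.82 ± 0.24 (adjusted p = 5.25e-16). Chaf1a and Chaf1b, subunits of the chromatin assembly factor CAF-1, fell by 0.99 and 0.90 in WT and by 1.62 and 1.11 in DKO livers. Asf1b, a histone chaperone, fell by 1.00 and 1.80. Slbp, which binds the stem-loop of histone mRNAs, fell by 0.23 ± 0.07 and 0.32 ± 0.06, the WT call being lost without control replicate 7 (adjusted p = 0.0685). Atad2, a bromodomain ATPase, fell in DKO livers (-0.84).

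Among the regulators 4 of 8 genes fell and 1 rose in WT livers, and 6 of 8 fell in DKO livers. The transcription factor E2f2 went from 5.99 ± 3.22 to 1.55 ± 0.808 CPM in WT (-1.96 ± 0.31, adjusted p = 2.48e-06) and fell by 1.43 in DKO livers. E2f1 fell by 0.66 in WT and by 1.13 ± 0.14 in DKO livers (adjusted p = 0.00148 and 1.72e-09). Dtl fell by 1.58 ± 0.37 and 2.49 ± 0.32, and Clspn by 1.60 and 2.29 ± 0.29. Cyclin E1 (Ccne1) and the repressor E2f7 were called lower in DKO and not in WT livers, by 1.38 and 1.07, and Ccne2 was not called in either genotype.

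E2f8, an atypical E2F that represses transcription, was called higher in WT livers, at 0.732 to 8.12 CPM (median 2.81) with leucine and at 3.25 to 31 CPM (median 7.6) without it (1.69 ± 0.49, adjusted p = 0.00894). In DKO livers it was not called (0.19 ± 0.41, adjusted p = 0.784). Of its exon bases 11.2% are shared with Gm2788, a transcript of the opposite strand that had more counts (87617 against 17855 in all) and that also rose in WT livers, by 1.35 ± 0.43 (adjusted p = 0.0193). Which strand setting the reads were counted with is not given here, so that reads of the shared bases cannot be told apart.

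**Figure D2:**
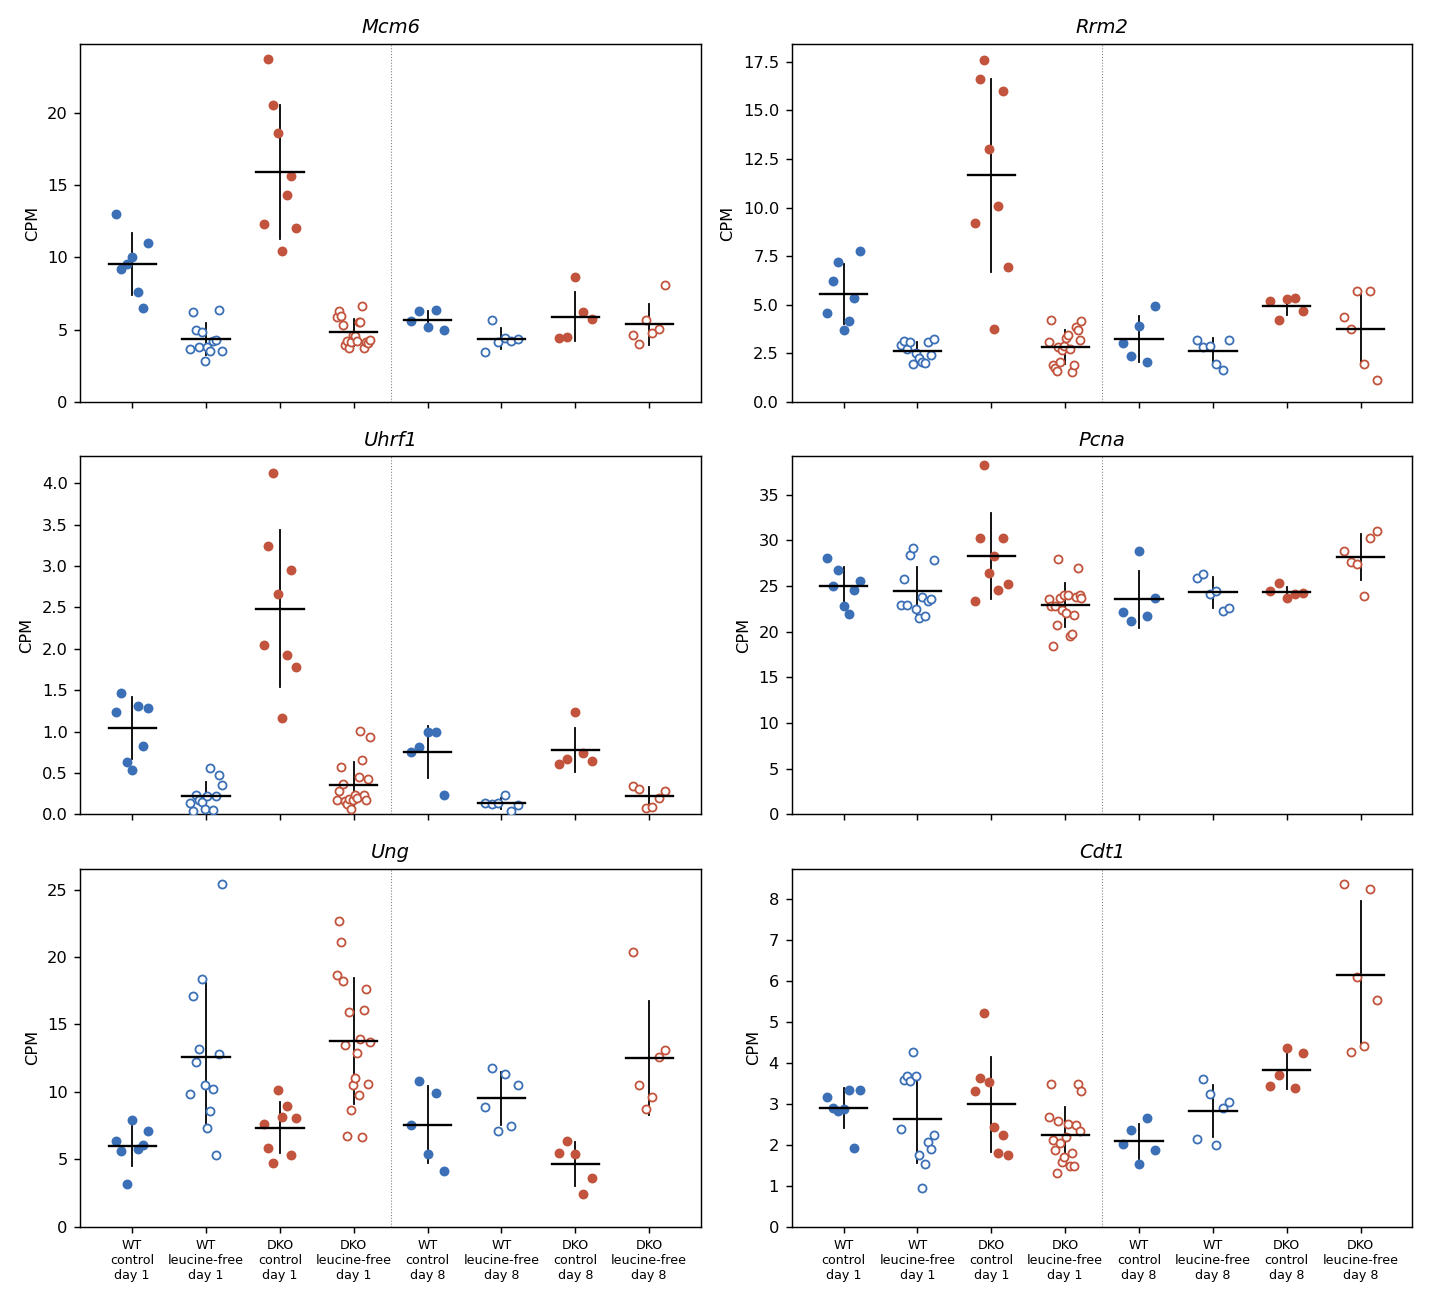
CPM of Mcm6, Rrm2, Uhrf1, Pcna, Ung and Cdt1 in every library by group, with bars for the group mean and SD. Mcm6, Rrm2 and Uhrf1 stand highest in the DKO control livers of day 1, Pcna keeps within 18.4 to 38.2 CPM across the 4 day 1 groups, Ung has a higher mean in the leucine-free than in the control livers of day 1, and Cdt1 is highest in the DKO leucine-free livers of day 8.

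**Figure D3:**
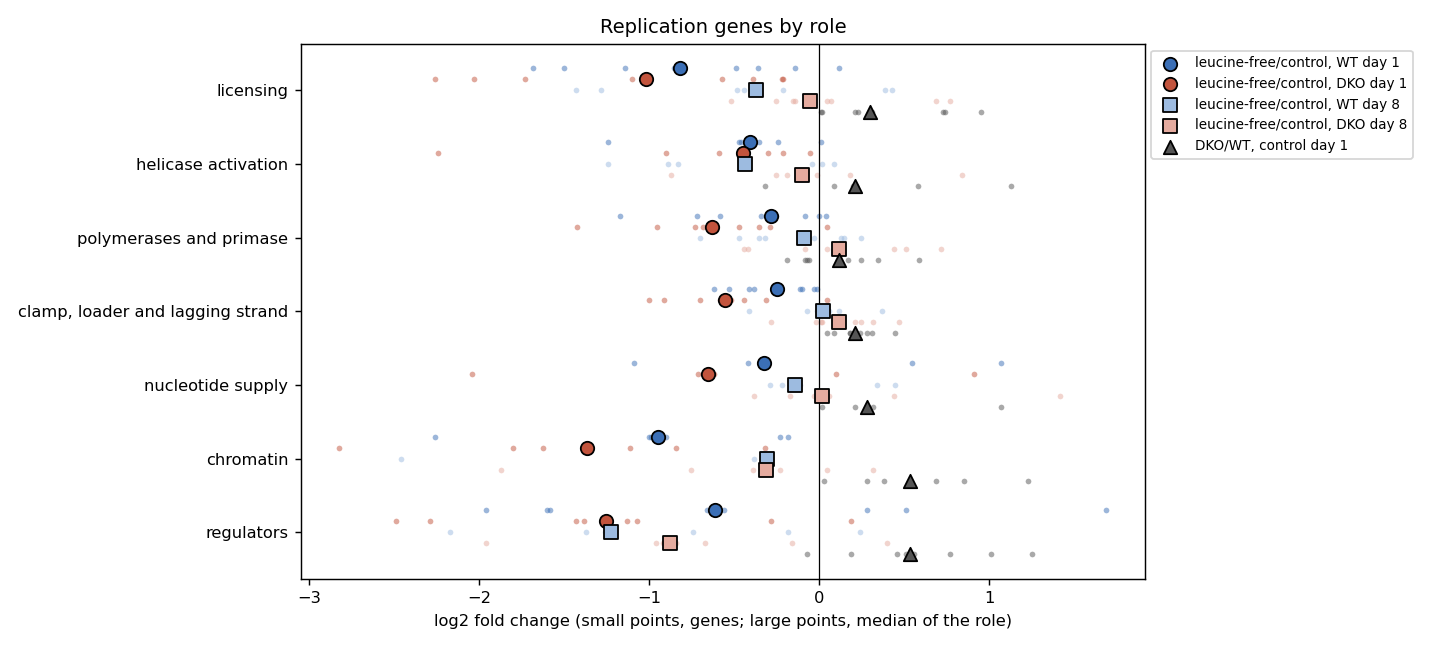
Log2 fold change of each gene (small points) and the median of each role (large points) in 5 comparisons. At day 1 every role has a median below 0 without leucine in both genotypes, from -0.25 to -0.94 in WT and from -0.44 to -1.37 in DKO livers.

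The groups did not overlap for 4 of 53 genes in WT (Mcm5, Mcm6, Rrm2 and Chaf1a) and for 7 in DKO livers (Mcm3, Mcm5, Mcm6, Rfc3, Tyms, Chaf1a and Uhrf1), all lower without leucine. Over all genes tested 1.37% were lower without overlap in WT and 1.4% in DKO livers. Genes with and without either spelling of the E2F site were also counted. In WT livers 7 of 15 with the letters and 15 of 28 without them fell, with medians of -0.41 and -0.40. In DKO livers 12 of 15 and 23 of 28 fell, with medians of -0.95 and -0.70. The 2 groups of genes were not tested against each other.

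Marker lists of other cells were counted in the same day 1 comparisons. No gene of the Kupffer list of 15 was called in either genotype, and its summed level was 252 to 1124 CPM in WT mice and 404 to 1181 CPM in DKO leucine-free livers. In WT livers 2 of 10 neutrophil genes and 2 of 10 stellate cell genes rose, with a summed level of 3.58 to 8.85 CPM with leucine and 2.34 to 59.3 CPM without it for the neutrophil list. Also in WT livers 2 of 7 cholangiocyte and 1 of 9 erythroid genes fell, and of 9 hepatocyte genes 1 rose and 2 fell. In DKO livers 3 of 9 erythroid and 1 of 15 lymphocyte genes fell, and 5 of 9 hepatocyte genes were called, 3 higher and 2 lower. Of the DKO stellate list of 10 genes 2 rose and 3 fell, and of the endothelial list of 10 genes 2 rose. The part of these cells in the changes of the replication genes was not tested.

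The change without leucine at day 1 was then compared between the genotypes. No replication gene passed the test of the diet by genotype interaction in edgeR, where 0.00591% of all genes were higher and 0.367% lower, and DESeq2 and limma voom also called 0. At an unadjusted p under 0.05 there were 21 of 52, beside 5.76% of all genes. The estimates of 47 of the 52 genes, all from the same livers, lay below 0, with a median of -0.33, beside 0.005 over all genes. The smallest adjusted p was that of Pola1 (-0.55 ± 0.15, adjusted p = 0.108). Rrm2 had -0.96 ± 0.30 (adjusted p = 0.234). The larger count of genes that fell in DKO livers is therefore not shown to be a difference between the genotypes for any single gene. Without WT control replicate 1, or without DKO control replicate 5, 1 gene was called lower. The same test called 27 of 40 G2 and mitosis genes lower, with a median of -2.08.

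On leucine-free food at day 1 the genotypes differed at 3 of the 52 genes (5.77%), all lower in DKO livers, and none was higher. Of all genes 1.83% were lower and 1.87% higher. The 3 were polymerase subunits. Pola2, the regulatory subunit of polymerase alpha, had 11.9 ± 2.07 CPM (SD, n = 12) in WT mice and 8.92 ± 1.25 CPM (n = 18) in the DKO group (-0.41 ± 0.08, adjusted p = 0.0024). Pola1, its catalytic subunit, had 4.48 ± 0.728 and 3.46 ± 0.622 CPM (-0.38 ± 0.09, adjusted p = 0.00972), and Pold2 had 14.6 ± 2.37 and 11.7 ± 1.72 CPM (-0.32 ± 0.09, adjusted p = 0.0264). Ranges overlapped for all 3. With the first 5 mice of each group the calls of Pola1 (adjusted p = 0.947) and Pold2 (adjusted p = 0.186) were lost. The median over the 52 genes was 0.02. Erythroid markers moved in the same comparison, with 3 of 9 lower in DKO livers and summed levels of 95.4 to 359 CPM in WT mice and 70.7 to 192 CPM in DKO livers. Of 9 hepatocyte genes 2 were lower. Their part in the polymerase values was not tested.

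Between day 1 and day 8 on control food, 33 of the 52 genes (63.5%) were lower at day 8 in DKO livers and none was higher, where 9.62% of all genes were lower and 7.42% higher. In WT livers 3 genes (5.77%) were lower and none higher, where 2.79% of all genes were lower and 1.65% higher. These are different mice at each day, and whether the days were prepared together is not given here. The medians were -0.62 in DKO and -0.26 in WT livers, beside 0.011 and 0.001 over all genes, and 46 of 52 estimates were negative in each.

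In DKO livers Mcm6 went from 10.4 to 23.7 CPM at day 1 to 4.42, 4.5, 8.61, 6.19 and 5.72 CPM in the 5 livers of day 8, with no overlap (-1.43 ± 0.18, adjusted p = 1.91e-08). In WT livers it went from 6.5 to 13 CPM to 5.57, 6.29, 5.16, 6.34 and 4.99 CPM, also with no overlap (-0.75 ± 0.19, adjusted p = 0.0113). By role, DKO livers had 6 of 9 licensing, 4 of 6 helicase, 3 of 9 polymerase, 5 of 8 clamp, 3 of 6 nucleotide, 6 of 6 chromatin and 6 of 8 regulator genes lower. Gins2 (-1.92 ± 0.34), Chaf1a (-1.38 ± 0.22), Fen1 (-1.24 ± 0.21) and Ccne1 (-2.27 ± 0.51) were the genes of smallest adjusted p in their roles, with Pole (-1.32 ± 0.25) and Tyms (-0.70 ± 0.12). Gins4 fell by 0.42 ± 0.09 (adjusted p = 0.00131), while Mcm7, Pold2, Pcna, Tk1 and E2f8 were not called.

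The groups of day 1 and day 8 did not overlap for 12 of 53 genes in DKO and for 4 in WT livers (Mcm6, Lig1, Tyms and Chaf1a), all lower at day 8. Over all genes tested 4.55% were lower without overlap in DKO and 2.03% in WT livers. Leaving out single libraries, 21 of the 33 DKO calls held in every fit and the count lay between 23 and 34. The WT calls of Tyms (-0.50 ± 0.13, adjusted p = 0.0142) and Chaf1a (-0.77 ± 0.23, adjusted p = 0.0417) did not hold in every fit. Tyms was lost without day 8 replicate 2 (adjusted p = 0.0511), and Chaf1a without 10 of the 12 libraries left out in turn, all but day 1 replicate 5 and day 8 replicate 4 (adjusted p = 0.0529 to 0.104). The count was 1 without day 8 replicate 2.

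The test of the genotype difference at day 8 against that at day 1, on control food, called none of the 52 genes in edgeR, where 0.0532% of all genes were higher and 0.0887% lower. DESeq2 called 0 and limma voom 2, both lower, and 10 of 52 genes had an unadjusted p under 0.05, beside 7.69% of all genes. The smallest adjusted p was 0.327, for Mcm5 (-1.07 ± 0.36). Endothelial (4 of 10), lymphocyte (3 of 15), stellate (3 of 10), cholangiocyte (3 of 7) and erythroid (1 of 9) genes rose between the days in DKO livers. In WT livers 1 of 15 Kupffer, 1 of 15 lymphocyte, 1 of 10 endothelial and 1 of 10 stellate genes rose, and 1 of 9 erythroid genes fell. The part of these cells was not tested.

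The foods were also compared at day 8, with fewer mice in each group, and the days were not tested against each other for the effect of food. In WT livers 4 of the 52 genes (7.69%) fell and none rose, where 2.87% of all genes fell and 2.38% rose, with a median of -0.29. Mcm5 had 3.86, 3.41, 3, 4.6 and 2.12 CPM in the control livers and 1.02, 1.02, 1.53, 1.13, 1.53 and 1.48 CPM in the leucine-free livers. The groups did not overlap, and the log2 change was -1.43 ± 0.30 (adjusted p = 0.00171). Uhrf1 had 0.752, 0.811, 1, 0.992 and 0.232 CPM on control and 0.142, 0.122, 0.132, 0.238, 0.0349 and 0.114 CPM on leucine-free food, with overlap at 1 liver of each group (-2.46 ± 0.54, adjusted p = 0.00241). Slbp (11.8 to 14 against 9.66 to 11.1 CPM, -0.31 ± 0.09, adjusted p = 0.0259) and E2f1 (2.11 to 3.45 against 1.24 to 1.88 CPM, -0.74 ± 0.23, adjusted p = 0.0414) did not overlap either. Slbp was lost without control replicate 1 or 4 or leucine-free replicate 1, 3 or 4 (adjusted p = 0.053 to 0.0889). E2f1 was lost without control replicate 3 or 4 or any leucine-free replicate but 4 (adjusted p = 0.0525 to 0.168). The count was 2 without control replicate 4 or leucine-free replicate 1 or 3. In all, 7 of 53 genes did not overlap and were lower, the other four being Mcm3, Gins3, E2f2 and Ccne1, which were not called. Over all genes tested 2.98% were lower without overlap.

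In DKO livers at day 8, 6 genes (11.5%) rose and 5 (9.62%) fell, near the shares of all genes, 11.1% higher and 9.51% lower. The median was -0.03. The genes that rose were Mcm7, Cdt1, Gins1, Prim1, Pold1 and Ung, and those that fell were Mcm10, Pola1, Uhrf1, E2f1 and Clspn. None of the 6 that rose was called in WT livers at day 8, and E2f1 and Uhrf1 fell in both genotypes (50% of 4 WT and 40% of 5 DKO genes that fell).

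Mcm7 had 16.4, 17.5, 13.6, 16.3 and 15 CPM in DKO control livers and 36.7, 29.4, 22.4, 17.9, 27.9 and 27.2 CPM in DKO leucine-free livers, without overlap (0.77 ± 0.14, adjusted p = 3.58e-05). Ap4m1, which shares 7.25% of the exon bases of Mcm7 on the opposite strand, rose in the same comparison by 0.41 (adjusted p = 0.0426). Gins1, another subunit of GINS, had 3.54, 2.38, 3.53, 2.13 and 2.33 CPM against 3.78, 6.18, 4.8, 5.41, 6.26 and 3.8 CPM (0.84 ± 0.26, adjusted p = 0.014), again without overlap. Prim1, the catalytic subunit of primase, rose by 0.72 ± 0.20 (adjusted p = 0.00555) from 2.49 to 3.38 CPM up to 3.93 to 6.06 CPM. The share of all genes without overlap in this comparison was not counted, so that the lack of overlap does not set these genes apart.

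Ung had 5.48, 6.38, 5.37, 2.43 and 3.59 CPM in DKO control livers and 20.4, 10.5, 8.76, 9.6, 12.6 and 13.1 CPM in DKO leucine-free livers (1.42 ± 0.30, adjusted p = 0.000335). In WT livers of day 8 it had 7.52, 10.8, 5.39, 9.92 and 4.15 CPM and 8.85, 11.8, 7.12, 11.3, 7.5 and 10.5 CPM. The DKO groups did not overlap and the WT groups did. Uhrf1 fell by 1.87 ± 0.46 (adjusted p = 0.00189), from 0.604, 0.662, 1.24, 0.741 and 0.642 CPM to 0.338, 0.311, 0.0746, 0.0897, 0.202 and 0.282 CPM. E2f1 fell by 0.96 ± 0.22 (adjusted p = 0.00077) and Clspn by 1.96 ± 0.56 (adjusted p = 0.00701).

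Some of these DKO calls did not hold without single libraries. Cdt1 (0.69 ± 0.24, adjusted p = 0.0332) was lost without control replicate 1, 2 or 4 or leucine-free replicate 1 or 5 (adjusted p = 0.0592 to 0.0947). Mcm10 (-0.87 ± 0.30) was lost without control replicate 2 or 5 or leucine-free replicate 1, 3, 4 or 5 (0.0601 to 0.0955), and Pola1 (-0.42 ± 0.14) without control replicate 2 or leucine-free replicate 1, 4 or 5 (0.0507 to 0.0743). Pold1 (0.44 ± 0.15) was lost without control replicate 3, 4 or 5 or leucine-free replicate 1 or 6 (0.054 to 0.116). Kupffer cell genes fell without leucine at day 8, 4 of 15 in WT and 10 of 15 in DKO livers, with summed levels of 747 to 986 against 342 to 701 CPM in WT mice and 792 to 1037 against 213 to 858 CPM in DKO livers. In WT livers 2 of 10 neutrophil, 2 of 15 lymphocyte, 1 of 9 erythroid and 1 of 10 stellate genes fell as well. In DKO livers 3 of 9 erythroid genes fell and 1 rose, 2 of 10 stellate genes fell and 1 rose, 2 of 7 cholangiocyte genes fell, and of 9 hepatocyte genes 1 rose and 1 fell. Their part in the replication gene values was not tested.

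The diet by genotype interaction at day 8 called none of the 52 genes in edgeR, DESeq2 or limma voom, and 7 of 52 had an unadjusted p under 0.05, beside 8.91% of all genes. Of all genes 0.0177% were higher and 0.0237% lower. Ccne1 had an estimate of 2.57 ± 1.01 (adjusted p = 0.377), and Ung had 1.08 (adjusted p = 0.366). The rise of Ung and Mcm7 in DKO livers is thus not shown to differ from WT livers.

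Between the genotypes at day 8, Cdt1 was the 1 gene called. On leucine-free food WT livers had 2.13, 3.61, 3.23, 1.99, 2.89 and 3.05 CPM and DKO livers 8.37, 4.26, 6.1, 4.42, 8.24 and 5.54 CPM. Every DKO liver stood above every WT liver, and the log2 difference was 1.14 ± 0.24 (adjusted p = 0.00379). It was called under every setting run. On control food WT livers had 2.02, 2.35, 1.54, 2.65 and 1.86 CPM and DKO livers 3.44, 3.71, 4.37, 3.38 and 4.25 CPM, again without overlap, but the difference of 0.88 ± 0.28 did not pass (adjusted p = 0.419). On leucine-free food 1 of 52 genes (1.92%) was therefore higher and none lower, beside 1.44% of all genes higher and 0.621% lower, and 2 genes were called without DKO leucine-free replicate 3 or 5. On control food none was called in edgeR, DESeq2 or limma voom, 5 of 52 had an unadjusted p under 0.05 (6.39% of all genes), and 0.0473% of all genes were higher and 0.00591% lower. Besides Cdt1, Pola1 and Rfc5 were higher and Ccne1 lower without overlap on control food, and none of these was called. Over all genes tested 1.03% were higher and 0.958% lower without overlap there, and the share on leucine-free food was not counted. Dtl, whose product directs the degradation of the Cdt1 protein, was not called on either food at day 8. On control food at day 8 it had 0.385 ± 0.178 CPM in DKO and 0.28 ± 0.166 CPM in WT livers. A link to Cdt1 RNA was not tested.

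**Figure D4:**
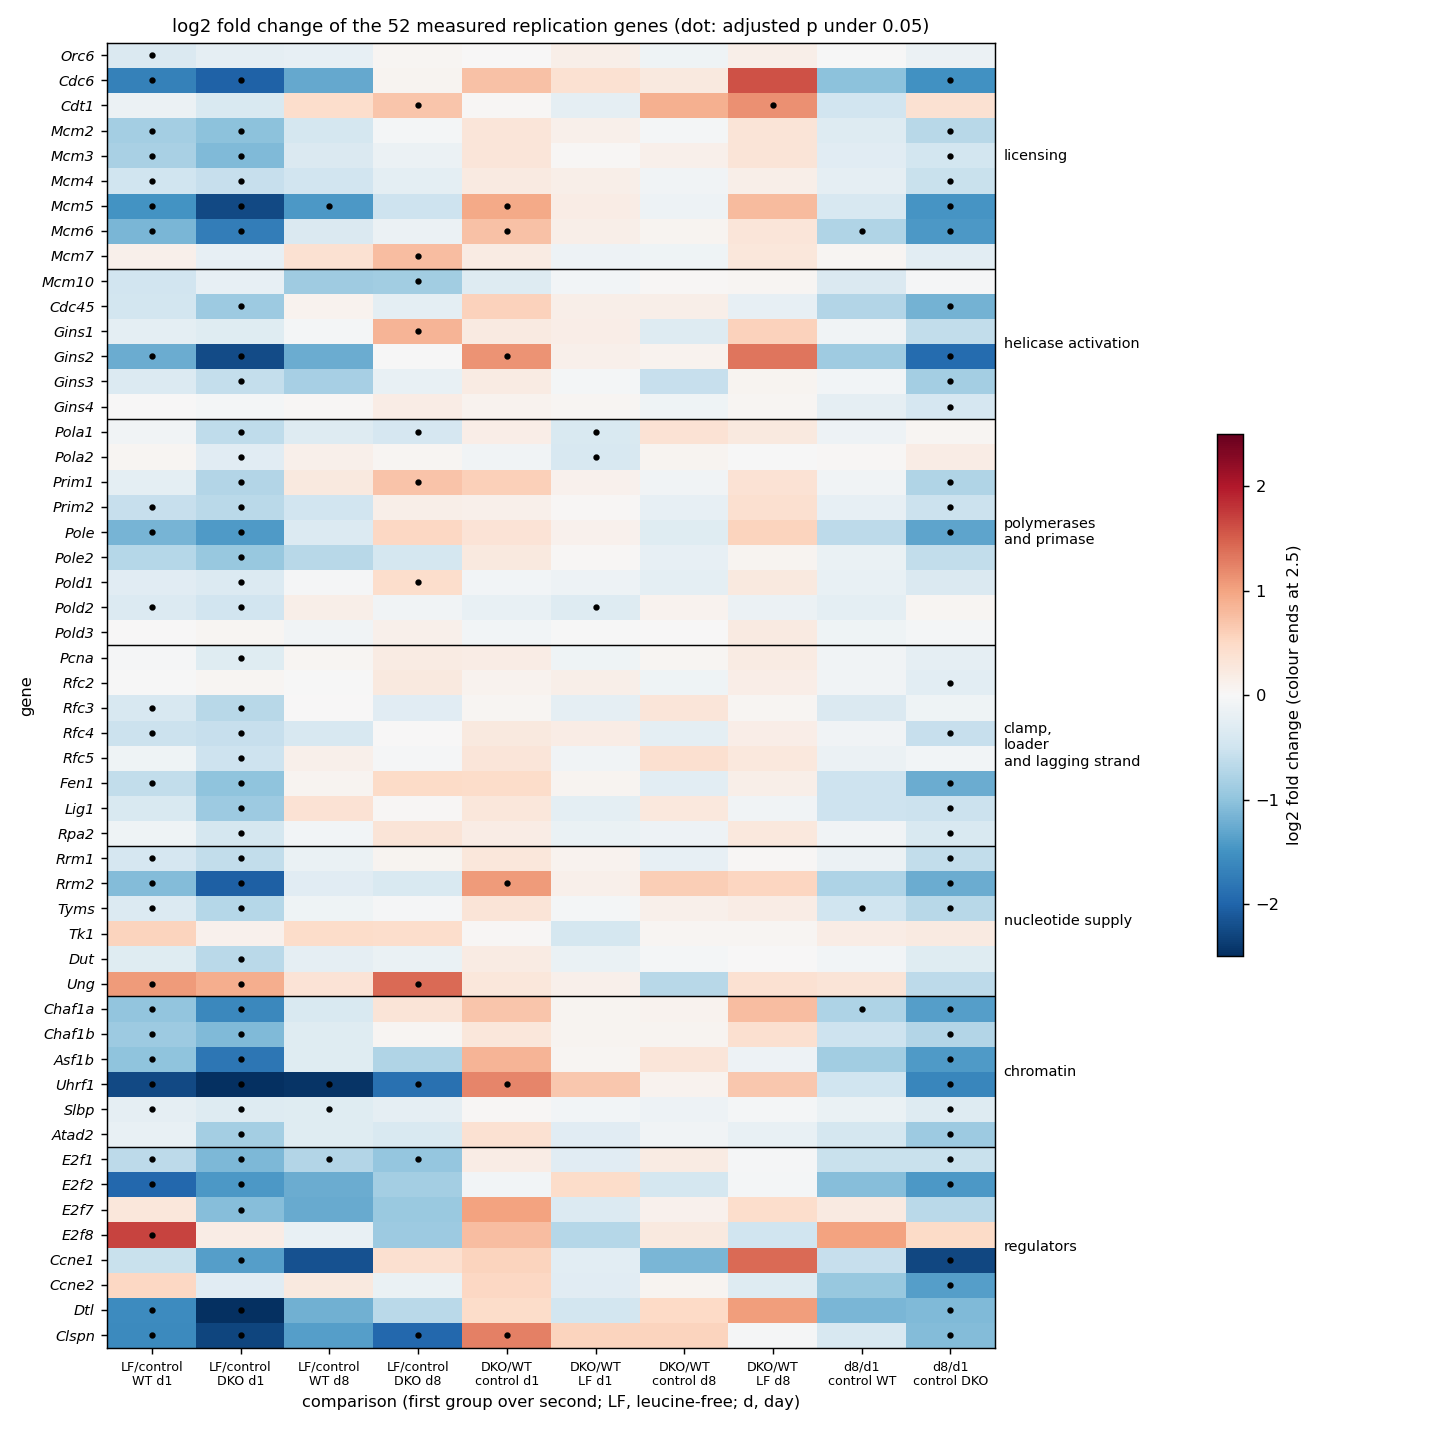
Log2 fold change of the 52 genes (vertical axis, by role) in 10 comparisons (horizontal axis), with dots for an adjusted p under 0.05. The 2 day 1 columns of leucine-free against control food and the DKO column of day 8 against day 1 hold most dots (28, 41 and 33), and Ung is the 1 gene with a dot for higher in 3 of the columns.

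Other genes of the division cycle were counted from lists. Of 53 other replication and repair genes tested, 8 were higher in the DKO control group of day 1. The median log2 difference of this list was 0.12, and 14 estimates lay below 0. Among the 8 were Ticrr (2.23, which helps to fire origins), Esco2 (2.32, the highest of the list, which acetylates cohesin in S phase) and Pclaf (1.77, a Pcna partner). In WT and DKO livers 18 and 31 of the 53 fell in 1 day without leucine, and 1 and 2 rose. Of 40 G2 and mitosis genes, 38 were higher in the DKO control group of day 1, with a median of 2.27, against 6 of 52 and a median of 0.28 for the replication genes. Both counts come from the same livers, and the 2 lists were not tested against each other. In 1 day without leucine 31 and 39 of these 40 fell in WT and DKO livers, with medians of -1.48 and -3.72.

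In the list of 20 G1 cyclins, E2F partners and inhibitors, the inhibitor p21 (Cdkn1a) rose in each diet comparison, by 2.46 in WT and 1.98 in DKO livers at day 1 and by 2.37 and 3.04 at day 8. At day 1, 3 of the 20 rose and 3 fell in WT livers, where 8.28% of all genes rose and 11.2% fell. In DKO livers of that day 4 rose and 2 fell, where 10.5% of all genes rose and 13% fell. At day 8, 4 of the 20 rose and none fell in WT livers, where 2.38% of all genes rose and 2.87% fell. In DKO livers of day 8, 5 rose and 4 fell, where 11.1% of all genes rose and 9.51% fell. Of 67 replication-dependent histone genes only 27 passed the filter. No more than 5 of the 27 were called in any comparison, and none between genotypes.

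Shared exons limit some of these values. Of the 53 genes, 18 share exon bases with another gene, 17 of them on the opposite strand. Gins2 shares 67.3% of its exon bases with Gse1 and Chaf1a shares 52.5% with Ubxn6. Ubxn6 rose where Chaf1a fell, by 0.41 in WT and 0.24 in DKO livers in 1 day without leucine. Fen1 shares 78.8% with the antisense transcript Gm10143 and 5.37% with Tmem258, and both fell with it in DKO livers at day 1 (-1.34 and -0.37). In WT livers at day 1 Tmem258 fell by 0.58 (adjusted p = 1.02e-05), beside -0.62 for Fen1. Tk1 shares 1.6% with Afmid, which rose by 0.86 in WT livers at day 1.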

How the data were processed

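RNA counts of 67 mouse livers were used. Frozen tissue, miRNeasy extraction and directional NEBNext Ultra II libraries were used, per the labels' protocols. The authors deposited raw counts, whole numbers per Ensembl gene and library. STAR 2.7.1a, featureCounts 2.0.1 and DESeq2 1.26.0 appear in the submitters' processing notes beside the builds mm10 and GRCm38, while the strand option of the counting does not. All 55450 identifiers matched GENCODE M21 of GRCm38, the source of symbols and positions.

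After TMM scaling, edgeR 4.0.16 (under R 4.3.3) was applied with its quasi-likelihood test with robust estimation, in 1 model of the 8 groups over all 67 libraries. Genes kept by filterByExpr (16908) were tested in 13 comparisons, and those with an adjusted p (Benjamini-Hochberg, over all genes of the comparison) under 0.05 were called. CPM values use TMM-scaled library sizes, log2 CPM a prior count of 2, and errors are SD over mice or SE of log2 fold changes. The newer edgeR dispersion was chosen after both were seen, and follows an earlier analysis of the series. Alternatives were the tools DESeq2 1.42.0 and limma 3.58.1 (voom, quality weights), the earlier dispersion of edgeR, scaling by RLE or by totals, no filter or a filter at a mean CPM of 1, fits of the compared groups alone, a block by mouse number, the first 5 mice per group, and libraries left out.

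The members, roles and lists were chosen with earlier results of these data known. All members are accounted for. Full statistics go, per role and comparison, to the called member with the smallest adjusted p and the member with the highest mean CPM, and values to 29 members set in the rule; other members are named where a role holds few calls or, as said there, after their values were seen. The marker Tf of the hepatocyte list was not matched. The TTTGAA search was added to the rule.

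Library totals lay between 22814668 and 56916009. Reads carried no molecular identifiers, so they do not count independent molecules. Each library is a separately numbered mouse, and p-values rest on a spread between mice estimated over all 8 groups together. No libraries of a group agreed within sampling noise (lowest chi-square per degree of freedom 17.3). The labels do not say that mouse numbers pair mice. Same-numbered deviations correlated between -0.169 and 0.235. In no comparison did every pair pass 0.1, though 4 of 7 did for the diet in WT livers at day 1. These correlations cannot exclude a pairing. Some genes of the lists are not reported here.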

Additional observations from a re-analysis of the deposited data

Results flagged for a closer look

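Of 174 groups of values examined, 12 held 1 library whose gap to its nearest neighbour was large for the range of its group by Dixon's test, and chance gives about 1 in 20. The 174 do not cover all 29 genes of the rule in all 8 groups. None of the 12 lay in a leucine-free group of day 1, and those groups are not shown to be without such libraries. Among control livers of day 1, WT replicate 6 was lowest for Cdt1 (1.91 CPM, next 2.83) and highest for Tk1 (35.2 CPM, next 24.6), and WT replicate 5 was lowest for Gins2 (0.445 CPM, next 1.03). DKO replicate 5 of that day was lowest for Fen1 (3.11 CPM, next 6.83) and for Chaf1b (0.441 CPM, next 1.73). Among control livers of day 8, WT replicate 3 was lowest for Rrm1 (10.1 CPM, next 12.8), WT replicate 5 lowest for Uhrf1 (0.232 CPM, next 0.752), DKO replicate 1 lowest for Chaf1b (1 CPM, next 1.24) and DKO replicate 3 highest for Uhrf1 (1.24 CPM, next 0.741). Among leucine-free livers of day 8, WT replicate 1 was lowest for Mcm2 (2.38 CPM, next 3.23), WT replicate 4 lowest for Tyms (3.66 CPM, next 5.21) and DKO replicate 5 highest for Chaf1b (2.04 CPM, next 1.16).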

How the results depend on the processing

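No call of a replication gene changed its direction under any setting: 2425 of these refits held the call and 232 lost it, most often with the first 5 mice per group (30 calls) or with no expression filter (20). Some counts of genes called moved by over 1.5 times, and except where a filter left genes out the cause was not tested. For leucine-free against control food in WT livers at day 8, where 4 genes were called, the count was 7 with DESeq2, 7 with voom, 2 with no filter and 9 with only the compared groups. For DKO against WT on control food at day 1, where 6 were called, it was 3 with DESeq2 and 3 with the older edgeR dispersion. It was 3 at a mean CPM of at least 1 and 2 with only the compared groups. At that filter Gins2, Uhrf1 and Clspn, with means of 0.892, 0.687 and 0.357 CPM over all libraries, fell below the limit and were not tested. For DKO against WT on leucine-free food at day 8, with 1 called, it was 2 with DESeq2 and 2 with voom. For day 8 against day 1 on control food voom called 8 in WT livers against 3, and 2 against 0 in the test of the genotype difference between the days.

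Leaving out 1 library at a time, the counts called ran as follows at day 1: 26 to 29 (WT) and 40 to 42 (DKO) for the diet, 4 to 8 for the genotype on control food, and 0 to 1 for the interaction. At day 8 they ran from 2 to 4 (WT) and from 8 to 11 (DKO) for the diet, from 0 to 0 (control food) and 1 to 2 (leucine-free food) for the genotype, and from 0 to 0 for the interaction. Between the days they ran from 1 to 3 in WT and from 23 to 34 in DKO livers, and from 0 to 0 for the genotype by day test. Only groups of up to 8 libraries were left out this way.

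A block by mouse number was also fitted, though the labels do not say that the numbers pair mice. With it the counts were 29 and 38 for the diet at day 1 (WT and DKO) and 3 and 11 at day 8. For the genotype they were 7 and 2 at day 1 (control and leucine-free food) and 0 and 1 at day 8. Between the days they were 2 and 27 (WT and DKO), and the 3 interaction tests called 0. Cdc6 and Dtl, at means of 0.304 and 0.329 CPM over all libraries, rest on few counts, with 0 to 67 and 0 to 52 per library, which limits the precision of their values.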
